A study of Mus musculus with 23 samples.

Results

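Epithelial-mesenchymal transition (EMT) was followed through 10 genes in tdTomato+ lung tumor cells sorted from mice. The genes were chosen by symbol, with earlier results of these data known, so the set was not picked blind to the data. They are the transcription factors Zeb1, Zeb2, Snai2 and Twist1, the mesenchymal effectors Vim, Fn1, Postn, Acta2 and Tagln, and the epithelial cadherin Cdh1. All 10 of 10 symbols were found among the 35455 genes of the table that holds the BRAFV600E and BRAFV600E/PI3KαH1047R libraries and among the 35454 genes of the table that holds the PGC1α libraries. Of the 10, 9 had a mean of at least 10 normalized counts in both tables and were tested, and Twist1 was below that level.

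In an EMT, epithelial cells loosen their cadherin junctions and take on a migratory, matrix-producing state. Zinc finger and basic helix-loop-helix factors of the ZEB, SNAIL and TWIST families bind E-box sequences and repress Cdh1, while vimentin, fibronectin, periostin and smooth muscle actin build up. The same mesenchymal genes are made by fibroblasts, pericytes and, in part, endothelial cells of normal lung, so in sorted tumor cells they also report on RNA of such cells. Pecam1, the endothelial adhesion molecule CD31, and Dcn, the fibroblast proteoglycan decorin, were therefore set beside every comparison. In bulk samples a difference in the number of cells of a type and in RNA per cell cannot be told apart.

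There were 23 libraries. All mice carried 1 copy of the CRE-activated Braf CAT allele (CAT/+), which makes BRAFV600E together with the red fluorophore tdTomato after recombination. Of the libraries, 6 were CAT/+ alone (BRAFV600E: 1, 3 and 2 at 2, 6 and 12 weeks p.i.) and 8 were CAT/+; HR/+, with a CRE-activated allele of Pik3ca that encodes H1047R (BRAFV600E/PI3KαH1047R: 2, 4 and 2 at the same weeks). At 12 weeks p.i., 5 were CAT/+; PGC1a mutant/+ (PGC1αHet) and 4 were CAT/+; PGC1a mutant/mutant (PGC1αNull), from littermates with a floxed allele of the coactivator gene Ppargc1a. The mice had a mixed genetic background, were adult and were matched for age. Tumors were started with an adenovirus whose Sftpc promoter limits CRE to surfactant-producing cells, at a lower virus dose for 12 weeks than for 2 and 6 weeks, so in comparisons of 12 weeks with earlier weeks the dose and the week cannot be told apart. Lobes of the right lung were minced and digested, and tdTomato+ cells were sorted from them. The study's methods count separate mice as biological replicates, and the labels do not tie each library to a mouse, so p-values measure the spread between libraries.

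Normalized totals were 16433820 to 20287296 counts per library in the first table and 7115753 to 9159567 in the second, and the tables were normalized separately, so levels are compared only within a table. The labelled lung origin was checked against alveolar type 2 (AT2) markers: all 12 of 12 AT2 markers were above 0 in every library, with sums of 503484 to 1418190.2 counts in BRAFV600E, 63263 to 1057944 in BRAFV600E/PI3KαH1047R, 538917 to 679387 in PGC1αHet and 413711 to 666333 in PGC1αNull libraries. Ppargc1a ranged from 75.8 to 561 counts in PGC1αHet and from 38.0 to 124 in PGC1αNull libraries, and the ranges overlapped; counts over the whole gene do not isolate the floxed part. The Y-linked gene Ddx3y went against the sex labels of both BRAFV600E/PI3KαH1047R libraries at 12 weeks, with 55.4 counts in the library labelled male and 1419.9 in the library labelled female. Both carry the same group label, so exchanging them changes no group. The pooled comparison, the week effects and the relations to Pecam1 and Dcn are also given without both; the comparison at 12 weeks cannot be made without them.

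The promoters of Vim, Postn and Acta2 are shown because these 3 of the 9 genes tested had the largest log2 differences between PGC1αNull and PGC1αHet, given further on. RefSeq entries on GRCm38.p6 were matched by symbol for 5 of the 10 genes, Vim, Zeb2, Postn, Twist1 and Acta2. The 250 bases before the start site follow, 5′ to 3′ on the gene's own strand. The Vim window is chr2:13574061-13574310 on the plus strand, that of Postn, taken at the start with the TATA box, is chr3:54360857-54361106 on the plus strand, and that of Acta2 is chr19:34255374-34255623 on the minus strand. Capitals mark the TATA box (TATAAA, read on the gene's strand) and, in Acta2, CArG-like elements.
Vim: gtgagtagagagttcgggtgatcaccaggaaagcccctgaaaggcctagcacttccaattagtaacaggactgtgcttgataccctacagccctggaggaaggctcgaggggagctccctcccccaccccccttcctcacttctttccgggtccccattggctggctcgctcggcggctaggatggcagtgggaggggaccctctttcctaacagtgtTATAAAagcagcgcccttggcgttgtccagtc
Postn: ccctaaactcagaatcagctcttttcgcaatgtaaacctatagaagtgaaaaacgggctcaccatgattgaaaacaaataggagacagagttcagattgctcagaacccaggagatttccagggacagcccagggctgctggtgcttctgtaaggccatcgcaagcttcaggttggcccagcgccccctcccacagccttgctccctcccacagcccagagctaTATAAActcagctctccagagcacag
Acta2: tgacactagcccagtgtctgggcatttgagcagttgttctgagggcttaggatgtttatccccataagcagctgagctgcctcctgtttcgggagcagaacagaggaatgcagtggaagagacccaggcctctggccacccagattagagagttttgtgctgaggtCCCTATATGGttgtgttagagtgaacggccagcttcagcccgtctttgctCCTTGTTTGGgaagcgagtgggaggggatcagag

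The CArG box is the site that serum response factor binds in smooth muscle genes; a CArG-like element was taken as 10 bases that open with CC and close with GG and hold A or T at 5 or more of the 6 bases between, a rule that reads the same on both strands. The Acta2 window held 2 of them, CCCTATATGG from 84 to 75 bases and CCTTGTTTGG from 34 to 25 bases before the start, and 8.59% of the 32851 promoter windows of the same length held at least 1. TATAAA stood from 32 to 27 bases before the start of Vim and from 26 to 21 before that of Postn, and 7.59% of all windows held it. Postn has a further RefSeq start, whose window chr3:54359017-54359266 on the same strand did not hold TATAAA. The E-box letters CAGGTG or CACCTG, which cover both strands, were in 17.2% of all windows and in none of these 3. No marked element overlapped another. A match describes letters only.

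The first comparison asked how the EMT genes differed when PI3KαH1047R was added to BRAFV600E. No gene of the 9 tested passed an adjusted p of 0.05 with the weeks pooled (limma on log2(normalized count + 1), Benjamini-Hochberg over 17558 genes), against 0.0228% of all genes tested. At an unadjusted p under 0.05, 1 of 9 was higher in BRAFV600E/PI3KαH1047R, Vim, against 3.46% of all genes, and none was lower. None of the 9 had groups that did not overlap, against 0.0854% of all genes that were higher without overlap. The median log2 difference of the 9 was 0.35, beside 0.02 over all genes. That value pools weeks that differed: the median of the 9 was 1.81 at 2 weeks, 0.19 at 6 weeks and -0.33 at 12 weeks, where 1 of 9 had a difference above 0, beside 50.4% of all genes. The difference of Vim was 0.83. It missed the unadjusted threshold (0 of 9 higher) at 0.81 with the replicate number in the fit, at 0.77 with week as a second factor, at 0.65 with sex, at 0.64 with Dcn and at 0.29 with Pecam1, and, at the same value, without the filter on low genes.

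Of the transcription factors, Zeb1 and Zeb2 are zinc finger repressors of epithelial genes. Zeb1 had 1816 normalized counts in the BRAFV600E library at 2 weeks p.i., 1696, 3462 and 5054 in those at 6 weeks and 4344 and 949 in those at 12 weeks. The BRAFV600E/PI3KαH1047R libraries had 6789 and 6685 Zeb1 counts at 2 weeks, 7326, 2468, 1952 and 1362 at 6 weeks and 967 and 2510.1 at 12 weeks. Both BRAFV600E/PI3KαH1047R libraries at 2 weeks and replicate 1 at 6 weeks were above every BRAFV600E library, and the other 5 lay within the BRAFV600E range. The log2 difference of Zeb1 between genotypes was 0.25 ± 0.51 (SE; 95% interval -0.83 to 1.32), adjusted p = 0.937. Zeb2 had 4174 normalized counts in the BRAFV600E library at 2 weeks p.i., 3122, 5788 and 7115 in those at 6 weeks and 7883 and 1529 in those at 12 weeks. With PI3KαH1047R added, Zeb2 was at 18594 and 15065 counts at 2 weeks, 11267, 4851, 4887 and 3242 at 6 weeks and 2936 and 2874 at 12 weeks. The same 3 libraries were the highest for Zeb2. The log2 difference was 0.51 ± 0.49 (SE; 95% interval -0.53 to 1.55), adjusted p = 0.856.

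Snai2, which encodes the repressor SLUG, ranged from 71.2 to 764 counts in BRAFV600E and from 65.6 to 1212 in BRAFV600E/PI3KαH1047R libraries. Its 3 highest values were again in the BRAFV600E/PI3KαH1047R libraries at 2 weeks, with 905 and 1212, and in replicate 1 at 6 weeks, and the BRAFV600E library at 2 weeks came next with 764. The log2 difference was 0.35 ± 0.69 (SE; 95% interval -1.11 to 1.81), adjusted p = 0.933. Twist1, a basic helix-loop-helix factor of mesoderm, was at 0 in 8 of the 14 libraries and reached at most 3.21 counts, which is too few for a comparison.

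Of the effectors, Vim encodes the intermediate filament vimentin. Vim had 2096 normalized counts in the BRAFV600E library at 2 weeks p.i., 1364, 3572 and 4871 in those at 6 weeks and 3942 and 1507 in those at 12 weeks. The BRAFV600E/PI3KαH1047R libraries had 8625 and 8392 Vim counts at 2 weeks, 10042, 2496, 3685 and 2796 at 6 weeks and 3117 and 3424 at 12 weeks. The mean was 2892 ± 1440.0 (SD, n = 6) in BRAFV600E and 5322 ± 3119.6 (SD, n = 8) in BRAFV600E/PI3KαH1047R libraries, and 3 of 8 libraries exceeded every BRAFV600E library. The log2 difference was 0.83 ± 0.39 (SE; 95% interval 0.00 to 1.66), adjusted p = 0.73; the unadjusted threshold was missed without any 1 of 7 of the 14 libraries, and the difference then ranged from 0.65 to 1.02 over all 14 omissions. Postn encodes the matrix protein periostin. Postn had 738 normalized counts in the BRAFV600E library at 2 weeks p.i., 1804, 5993 and 5549 in those at 6 weeks and 5024 and 816 in those at 12 weeks. With PI3KαH1047R added, Postn was at 9414 and 13166 counts at 2 weeks, 14851, 3137, 3221 and 2682 at 6 weeks and 1001 and 3967 at 12 weeks. Postn spanned 20.1-fold from the lowest to the highest of the 14 libraries, and its log2 difference was 0.95 ± 0.65 (SE; 95% interval -0.43 to 2.33), adjusted p = 0.781.

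Acta2, the smooth muscle actin gene, and Tagln, which encodes the actin-binding protein transgelin, are both contractile genes. Acta2 had 192 normalized counts in the BRAFV600E library at 2 weeks p.i., 232, 266 and 406 in those at 6 weeks and 328 and 73.1 in those at 12 weeks. The BRAFV600E/PI3KαH1047R libraries had 683 and 666 Acta2 counts at 2 weeks, 394, 399, 244 and 942 at 6 weeks and 109 and 139 at 12 weeks. The highest Acta2 value was in replicate 4 at 6 weeks, not in the library that was highest for Vim and Postn. Tagln had 622 normalized counts in the BRAFV600E library at 2 weeks p.i., 388, 225 and 164 in those at 6 weeks and 167 and 141 in those at 12 weeks. With PI3KαH1047R added, Tagln was at 210.2 and 294 counts at 2 weeks, 427, 187, 307 and 359 at 6 weeks and 126 and 83.6 at 12 weeks. Tagln was highest in the BRAFV600E library at 2 weeks. The log2 difference between genotypes was 0.68 ± 0.50 (SE; 95% interval -0.38 to 1.74) for Acta2, adjusted p = 0.8. That of Tagln was -0.14 ± 0.41 (SE; 95% interval -1.01 to 0.73), adjusted p = 0.959, and its sign turned without the BRAFV600E library at 2 weeks (0.13) or without both 12 week BRAFV600E/PI3KαH1047R libraries (0.23).

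Fn1, which encodes fibronectin, ranged from 4300.2 to 13398 counts in BRAFV600E and from 3645 to 18423 in BRAFV600E/PI3KαH1047R libraries, with means of 7758 ± 3304 (SD, n = 6) and 8221 ± 4876 (SD, n = 8). Its 3 highest libraries were those of 2 weeks, of both genotypes. Cdh1 encodes E-cadherin, the adherens junction protein that an EMT removes. Cdh1 had 8391 normalized counts in the BRAFV600E library at 2 weeks p.i., 10958, 7633 and 7982 in those at 6 weeks and 10503 and 12990.4 in those at 12 weeks. The BRAFV600E/PI3KαH1047R libraries had 4506 and 5751 Cdh1 counts at 2 weeks, 6026, 11173, 12662 and 10780.1 at 6 weeks and 9239 and 10866 at 12 weeks. The 3 lowest Cdh1 values were in the libraries that were highest for Zeb1, Vim and Postn. Even there Cdh1 stayed at 4506 counts or more, and its spread from lowest to highest was 2.88-fold, smaller than the spread of the other 8 genes tested. The log2 difference of Cdh1 between genotypes was -0.19 ± 0.24 (SE; 95% interval -0.70 to 0.31), adjusted p = 0.888.

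Pecam1 and Dcn were set beside these values. Pecam1 had 1286 normalized counts in the BRAFV600E library at 2 weeks p.i., 2208, 5875 and 7729.7 in those at 6 weeks and 7019.8 and 1264 in those at 12 weeks. With PI3KαH1047R added, Pecam1 was at 11832 and 11179 counts at 2 weeks, 16965, 4511, 4000.4 and 2755 at 6 weeks and 2642 and 3932 at 12 weeks. The log2 difference of Pecam1 was 0.82 ± 0.54 (SE; 95% interval -0.32 to 1.97), adjusted p = 0.77, beside 0.83 for Vim and 0.95 for Postn. Dcn had 427 normalized counts in the BRAFV600E library at 2 weeks p.i., 266, 353 and 397 in those at 6 weeks and 797 and 279.6 in those at 12 weeks. With PI3KαH1047R added, Dcn was at 776 and 1060.2 counts at 2 weeks, 448, 153, 290.1 and 697 at 6 weeks and 1251 and 603 at 12 weeks. The log2 difference of Dcn was 0.50 ± 0.42 (SE; 95% interval -0.39 to 1.39), adjusted p = 0.832. All 18 of 18 endothelial markers had a log2 difference above 0, with a median of 0.89, and so did 11 of 11 smooth muscle and pericyte markers, with a median of 0.98, while 7 of 14 fibroblast markers did, with a median of 0.05; none passed the adjusted threshold. By week, the fibroblast markers with a difference above 0 were 14 of 14 at 2 weeks (median 1.10), 8 of 14 at 6 weeks (median 0.028) and 4 of 14 at 12 weeks (median -0.97). The summed endothelial markers ranged from 14267 to 123363 counts in BRAFV600E and from 24355 to 236532 in BRAFV600E/PI3KαH1047R libraries, and every endothelial marker was above 0 in every library. The summed fibroblast markers ranged from 5386 to 43091 and from 4839 to 113802, and the summed smooth muscle and pericyte markers from 817 to 3376 and from 892 to 9271. Macrophage markers (12 of 12 above 0, median 0.80) and AT1 markers (7 of 7, median 0.43) had differences of the same sign, as did 5 of 7 mesothelial markers (median 0.50), while 0 of 7 lymphocyte markers (median -0.48) and 0 of 12 AT2 markers had a log2 difference above 0, the latter with a median of -0.94. The part of these markers in the values of the EMT genes was not tested.

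**Figure D1:**
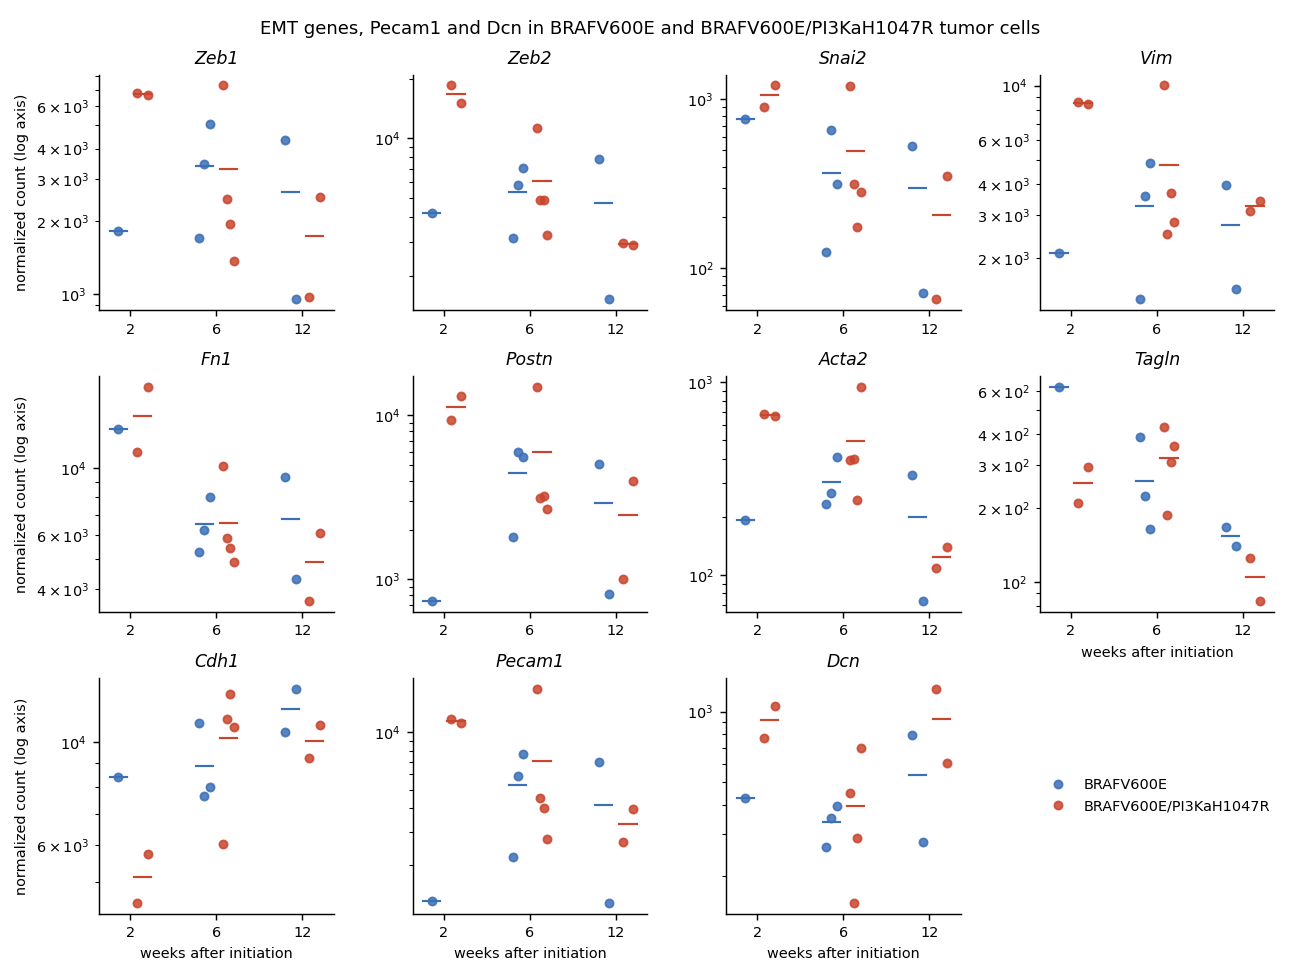
Normalized counts (log axis) of 9 EMT genes, Pecam1 and Dcn in the 14 BRAFV600E (blue) and BRAFV600E/PI3KαH1047R (red) libraries by weeks after initiation; each point is a library and each bar the mean of its group. Both BRAFV600E/PI3KαH1047R libraries at 2 weeks and 1 at 6 weeks are the highest for Zeb1, Zeb2, Snai2, Vim, Postn and Pecam1 and the lowest for Cdh1.

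Across the 14 libraries the EMT genes were related to Pecam1 to unequal degrees. On log2(normalized count + 1), Postn had r = 0.97 and rho = 0.96 (permutation p = 1e-05 for each, the smallest that 100000 resamples can give, adjusted p = 0.00024 and 0.00012). Vim had r = 0.92 and rho = 0.93 (permutation p = 2e-05 and 1e-05, adjusted p = 0.00024 and 0.00012). Zeb1 had r = 0.92 and rho = 0.95 (permutation p = 2e-05 and 1e-05, adjusted p = 0.00024 and 0.00012). Zeb2 had r = 0.88 and rho = 0.90 (permutation p = 4e-05 and 2e-05, adjusted p = 0.00036 and 0.00018). Only 0.142% of all genes tested had a higher r with Pecam1 than Postn, and 1.41% than Zeb2. The p-values are two-sided and were adjusted, for r and for rho apart, over 36 relations, 9 genes by Pecam1 and Dcn in each set of libraries, and all relations of a set share their libraries.

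The relations of these 4 genes were also computed within each genotype. The r of Postn with Pecam1 was 0.99 within the 6 BRAFV600E libraries and 0.94 within the 8 BRAFV600E/PI3KαH1047R libraries, that of Vim was 0.89 within the 6 BRAFV600E libraries and 0.94 within the 8 BRAFV600E/PI3KαH1047R libraries, that of Zeb1 was 0.94 within the 6 BRAFV600E libraries and 0.97 within the 8 BRAFV600E/PI3KαH1047R libraries and that of Zeb2 was 0.85 within the 6 BRAFV600E libraries and 0.92 within the 8 BRAFV600E/PI3KαH1047R libraries. Without the 2 libraries farthest from the median of Pecam1, r was 0.95 for Postn, 0.87 for Vim, 0.88 for Zeb1 and 0.84 for Zeb2. Cdh1 went the other way, with r = -0.71 and rho = -0.70 (permutation p = 0.00455 and 0.00764, adjusted p = 0.0328 and 0.0401), -0.49 within the 6 BRAFV600E libraries and -0.85 within the 8 BRAFV600E/PI3KαH1047R libraries, and r = -0.60 without the 2 farthest libraries. Snai2 had r = 0.68 and rho = 0.70 (permutation p = 0.00746 and 0.00686, adjusted p = 0.0448 and 0.0401), 0.43 within the 6 BRAFV600E libraries and 0.90 within the 8 BRAFV600E/PI3KαH1047R libraries, and 0.50 without the 2 farthest libraries (permutation p = 0.0948, 12 libraries), where it no longer passed the threshold.

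Acta2 had r = 0.62 and rho = 0.69 with Pecam1 (permutation p = 0.0173 and 0.0078, adjusted p = 0.077 and 0.0401), with r = 0.82 within the 6 BRAFV600E libraries and 0.43 within the 8 BRAFV600E/PI3KαH1047R libraries, and r = 0.53 without the 2 farthest libraries. Fn1 had r = 0.53 and rho = 0.64 (permutation p = 0.0505 and 0.0164, adjusted p = 0.13 and 0.0689), with r = 0.13 within the 6 BRAFV600E libraries and 0.88 within the 8 BRAFV600E/PI3KαH1047R libraries, and r = 0.42 without them. Tagln had r = -0.03 and rho = 0.06 (permutation p = 0.922 and 0.843, adjusted p = 0.922 and 0.843), with r = -0.49 within the 6 BRAFV600E libraries and 0.44 within the 8 BRAFV600E/PI3KαH1047R libraries. None of the 9 relations with Dcn passed, where the smallest adjusted p of r was 0.155, for Vim (r = 0.48, rho = 0.51), and the smallest of rho was 0.0912, for Cdh1 (rho = -0.58; permutation test). The library that was highest for Dcn, BRAFV600E/PI3KαH1047R replicate 1 at 12 weeks, had Vim and Postn counts of 3117 and 1001, in the lower part of their ranges; its summed fibroblast markers, 4839 counts, were the lowest of the 14 libraries, so Dcn did not stand for the fibroblast list there. Without the 2 libraries farthest from the median of Dcn, r with Dcn was 0.60 for Vim, 0.64 for Acta2, 0.62 for Fn1, 0.59 for Zeb2 and 0.66 for Snai2. Each of these had an unadjusted permutation p under 0.05 over the 12 libraries left. The other values, 0.54 for Postn and for Zeb1, -0.51 for Cdh1 and -0.13 for Tagln, did not. Without both 12 week BRAFV600E/PI3KαH1047R libraries, r with Dcn was 0.60 for Vim, 0.64 for Fn1, 0.59 for Zeb2, 0.59 for Snai2 and -0.58 for Cdh1, and r with Pecam1 was 0.98 for Postn, 0.93 for Vim, 0.94 for Zeb1, 0.90 for Zeb2 and -0.72 for Cdh1.

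With the log2 level of Pecam1 in the fit, the pooled log2 difference between genotypes was -0.012 for Postn, -0.49 for Zeb1, -0.14 for Zeb2, -0.37 for Snai2 and 0.29 for Vim. With Dcn in its place it was 0.85 for Postn and 0.64 for Vim. Without both 12 week BRAFV600E/PI3KαH1047R libraries the differences were 1.00 for Vim, 1.19 for Acta2 and 1.35 for Postn, and Vim and Acta2 passed an unadjusted p of 0.05. That fit has no week term and sets BRAFV600E libraries of all weeks against BRAFV600E/PI3KαH1047R libraries of the earlier weeks only. Week and genotype are therefore mixed in it, and no share of all genes is given for it.

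**Figure D2:**
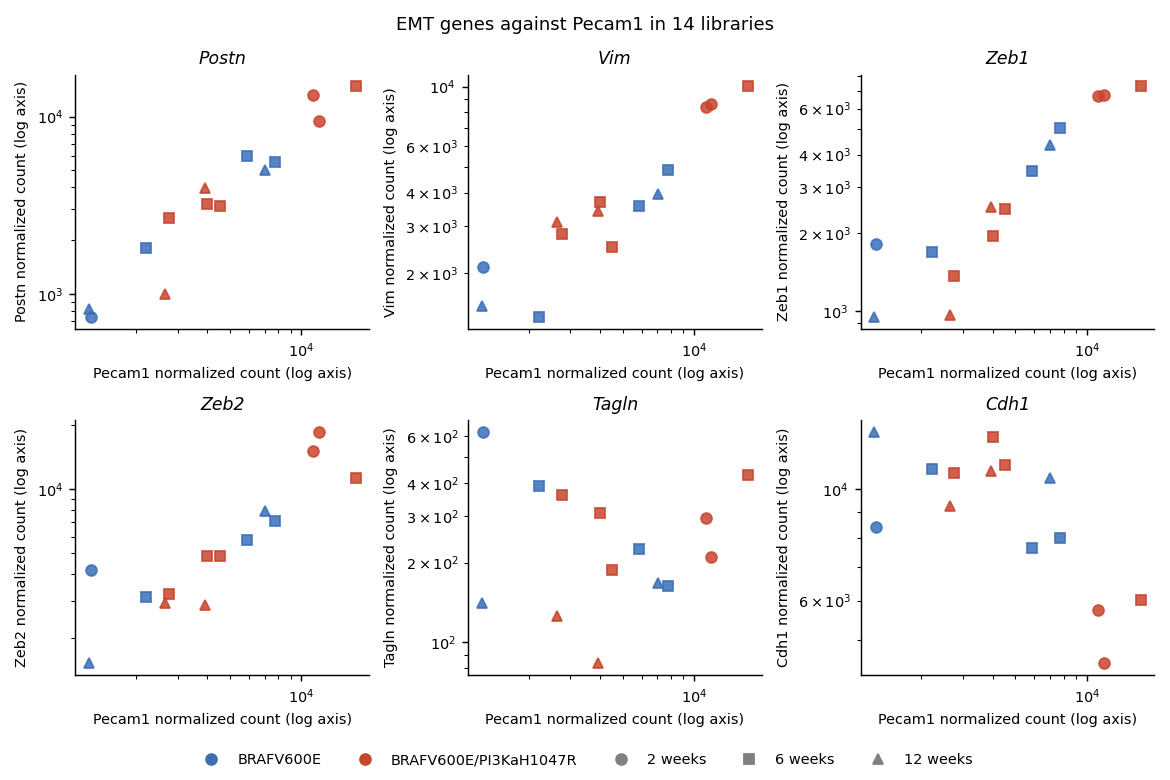
Normalized counts of 6 EMT genes (vertical log axes) against those of Pecam1 (horizontal log axes) in the 14 libraries; colors give the genotype and shapes the week. Postn, Vim, Zeb1 and Zeb2 line up with Pecam1, Tagln does not, and Cdh1 is lowest where Pecam1 is highest.

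By week, the log2 differences between genotypes were widest at 2 weeks for Postn, Vim and Zeb2, where the comparison rests on 1 BRAFV600E library and its spread is taken from the other groups. That library is labelled female and both BRAFV600E/PI3KαH1047R libraries male, and at that week sex and genotype therefore cannot be told apart. At 2 weeks, 0 of 9 genes passed an adjusted p of 0.05, against 0.0171% of all genes, and 3 of 9, Postn, Vim and Zeb2, were higher at an unadjusted p under 0.05, against 6.93% of all genes. The log2 difference was 3.91 ± 1.21 (SE; 95% interval 1.28 to 6.55) for Postn, adjusted p = 0.196. It was 2.02 ± 0.85 (SE; 95% interval 0.18 to 3.86) for Vim, adjusted p = 0.331, and 2.00 ± 0.84 (SE; 95% interval 0.17 to 3.84) for Zeb2, adjusted p = 0.335. With sex in the fit, estimated from the later weeks, the differences were 4.70 for Postn, 2.00 for Vim and 2.18 for Zeb2, and only Postn passed the unadjusted threshold. With the replicate number as a block they were 3.67, 2.04 and 2.16, and none of the 3 passed. Pecam1 had 3.16 ± 1.08 (SE; 95% interval 0.82 to 5.50), adjusted p = 0.228, and 15 of 18 endothelial markers were higher at the unadjusted threshold. All 11 of 11 smooth muscle and pericyte markers had a difference above 0, with a median of 2.62 and 4 past that threshold, as did 14 of 14 fibroblast markers, with a median of 1.10 and 1 past it, and 12 of 12 macrophage markers, with a median of 2.14 and 4 past it. Of the 12 AT2 markers, 11 were lower at that threshold, with a median log2 difference of -2.29. With Pecam1 in the fit, the values were 0.57 for Postn, -0.27 for Vim and -0.35 for Zeb2. At 2 weeks Pecam1 was at 1286 counts in the BRAFV600E library and at 11832 and 11179 in the BRAFV600E/PI3KαH1047R libraries. That fit therefore compares the genotypes at levels of Pecam1 that they did not share.

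Not all the genes followed that direction at 2 weeks. Tagln had a log2 difference of -1.32 ± 0.62 (SE; 95% interval -2.66 to 0.02), adjusted p = 0.379, and Cdh1 of -0.72 ± 0.42 (SE; 95% interval -1.63 to 0.19), adjusted p = 0.483. Zeb1 had 1.89 ± 1.02 (SE; 95% interval -0.32 to 4.11) and Acta2 1.81 ± 0.84 (SE; 95% interval -0.03 to 3.64), with adjusted p = 0.448 and 0.379. The BRAFV600E library at 2 weeks had low Pecam1 with 1286 counts and summed endothelial markers of 15857, but its fibroblast markers summed to 43091, the highest among BRAFV600E libraries. In it Snai2, Fn1 and Tagln were the highest of the BRAFV600E libraries, and Postn the lowest.

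At 6 weeks no gene of the 9 passed the adjusted threshold, against 0.0228% of all genes, or the unadjusted one, against 2.24% higher and 1.99% lower of all genes. At 12 weeks none of the 9 passed either, against 0.0114% of all genes at the adjusted threshold and 2.18% higher and 1.58% lower at the unadjusted one. The smallest p at 6 weeks was that of Acta2, with a log2 difference of 0.57 ± 0.53 (SE; 95% interval -0.57 to 1.72), and at 12 weeks that of Tagln, with -0.58 ± 0.50 (SE; 95% interval -1.67 to 0.52). The change of the PI3KαH1047R difference from 2 to 6 weeks was tested as an interaction and passed for 0 of 9 genes and 0% of all 17558. At an unadjusted p under 0.05, 1 of 9 was higher at 6 weeks, Tagln with 1.66 ± 0.73 (SE; 95% interval 0.08 to 3.23), adjusted p = 0.55, against 4.28% of all genes. At the same threshold, 1 of 9 was lower, Postn with -3.72 ± 1.43 (SE; 95% interval -6.82 to -0.62), adjusted p = 0.486, against 4.66% of all genes. Tagln missed the threshold with sex in the fit (1.64) or with Pecam1 (1.55), and Postn missed it with Pecam1 (-0.60), with Dcn (-3.21) or with the replicate number as a block (-3.23). Pecam1 had -2.95 ± 1.27 (SE; 95% interval -5.71 to -0.19). From 6 to 12 weeks the interaction passed for 0 of 9 genes and 0% of all genes.

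The weeks themselves were compared over both genotypes. From 2 to 6 weeks, 0 of 9 genes passed the adjusted threshold, against 0.0513% of all genes. Fn1 was lower at the unadjusted threshold, with a log2 difference of -1.16 ± 0.30 (SE; 95% interval -1.79 to -0.52), adjusted p = 0.174, against 5.35% of all genes that were lower. Cdh1 was higher, with 0.62 ± 0.25 (SE; 95% interval 0.09 to 1.15), adjusted p = 0.345, against 6.58% of all genes. The 3 Fn1 values of 2 weeks did not overlap with any of later weeks, whereas those of Cdh1 did. Dcn had -1.01 ± 0.46 (SE; 95% interval -1.99 to -0.02) over the same weeks. Markers of other cell types differed between these weeks too: 12 of 12 AT2 markers were higher at 6 weeks, 11 of them at the unadjusted threshold, with a median of 1.65, 6 of 7 AT1 markers were lower at that threshold, with a median of -1.01, and 12 of 14 fibroblast markers had a difference below 0, with a median of -1.20. Their part in the values of Fn1 and Cdh1 was not tested. Without both 12 week BRAFV600E/PI3KαH1047R libraries Fn1 had -1.14 and Cdh1 0.63. With Pecam1 in the fit, Fn1 had -1.14 and passed, adjusted p = 0.0147, and 2 of 9 genes passed in all, the other being Zeb2; in that fit 1.78% of all genes passed. With Dcn in its place Fn1 had -1.02, and Cdh1, with 0.36, missed the unadjusted threshold.

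From 6 to 12 weeks, 0 of 9 genes and 0% of all genes passed the adjusted threshold. Both contractile genes were lower at the unadjusted threshold, 2 of 9 against 3.02% of all genes: Acta2 had a log2 difference of -1.37 ± 0.46 (SE; 95% interval -2.36 to -0.38), adjusted p = 0.895, and Tagln one of -1.16 ± 0.36 (SE; 95% interval -1.92 to -0.40), adjusted p = 0.861. The 12 week Tagln values, 167 and 141 and 126 and 83.6, overlapped those of 6 weeks at 1 value, 167 against 164. Dcn had 0.95 ± 0.42 (SE; 95% interval 0.06 to 1.84), in the opposite direction. The fibroblast list did not follow Dcn: 4 of 14 markers had a difference above 0 and 5 were lower at the unadjusted threshold, with a median of -1.19. The median was -0.92 for the 11 smooth muscle and pericyte markers, 1 of which was above 0, and -0.91 for the 18 endothelial markers, 2 of which were. Of the macrophage markers 11 of 12 were above 0, 6 of them higher at the unadjusted threshold, with a median of 1.24, and all 12 of 12 AT2 markers were above 0, with a median of 0.58. Their part in the values of Acta2 and Tagln was not tested. Without both 12 week BRAFV600E/PI3KαH1047R libraries neither gene passed the unadjusted threshold, with -0.71 for Acta2 and -0.92 for Tagln. Virus dose also differed between these weeks.

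The second genotype comparison asked how the EMT genes differed when both copies of Ppargc1a were floxed in BRAFV600E tumors. No gene of the 9 passed the adjusted threshold, and 0% of all 17424 genes did (limma, Benjamini-Hochberg); at an unadjusted p under 0.05, 464 genes were higher and 203 lower. Of the 9, Postn, Vim, Acta2 and Zeb1, 4 of 9, were higher in PGC1αNull at the unadjusted threshold, against 2.66% of all genes, and none was lower. In the same 4 genes every PGC1αNull library was above every PGC1αHet library, against 0.941% of all genes. The median log2 difference of the 9 was 0.91, beside 0.01 over all genes.

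Postn separated the genotypes most evenly. Postn was at 15.1, 17.7, 28.5, 23.1 and 28.5 normalized counts in the PGC1αHet libraries and at 96.7, 79.9, 64.1 and 98.3 in the PGC1αNull libraries. The means were 22.6 ± 6.14 (SD, n = 5) and 84.8 ± 16.1 (SD, n = 4), and the log2 difference was 1.88 ± 0.36 (SE; 95% interval 1.10 to 2.67), adjusted p = 0.267. Vim was at 192, 375, 120.1, 335 and 413 normalized counts in the PGC1αHet libraries and at 1313, 744, 1178 and 509.5 in the PGC1αNull libraries. The Vim means were 287 ± 125 (SD, n = 5) and 936 ± 374 (SD, n = 4), with no overlap, and the log2 difference was 1.74 ± 0.39 (SE; 95% interval 0.90 to 2.59), adjusted p = 0.449. Acta2 was at 9.69, 16.2, 24, 26.4 and 13 normalized counts in the PGC1αHet libraries and at 53.8, 186, 66.9 and 49.6 in the PGC1αNull libraries. Replicate 2 of PGC1αNull was the highest for Acta2, but the other 3 were also above all PGC1αHet libraries, and the log2 difference was 2.12 ± 0.49 (SE; 95% interval 1.05 to 3.18), adjusted p = 0.49.

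Among the transcription factors, Zeb1 did not overlap between genotypes. Zeb1 was at 89.2, 162, 95.3, 96.8 and 98.0 normalized counts in the PGC1αHet libraries and at 190.2, 178, 177 and 321 in the PGC1αNull libraries. Its log2 difference was 0.98 ± 0.29 (SE; 95% interval 0.37 to 1.60), adjusted p = 0.724. Zeb2 and Snai2 overlapped. Zeb2 was at 297, 472, 162, 101 and 366 normalized counts in the PGC1αHet libraries and at 465, 271, 449 and 369 in the PGC1αNull libraries. Snai2 was at 36.0, 12.5, 6.52, 8.76 and 25.5 normalized counts in the PGC1αHet libraries and at 43.2, 34.3, 15.2 and 29.7 in the PGC1αNull libraries. Their log2 differences were 0.65 ± 0.40 (SE; 95% interval -0.22 to 1.51) and 0.91 ± 0.59 (SE; 95% interval -0.36 to 2.18), both with adjusted p = 0.998. Twist1 was at 0 in all 4 PGC1αNull libraries, and in PGC1αHet it had 1.98, 10.6, 0.92, 0 and 0 counts.

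For the remaining genes the groups overlapped. Fn1 was at 434, 790.4, 573, 713 and 1262 normalized counts in the PGC1αHet libraries and at 1271, 1426, 921 and 461 in the PGC1αNull libraries. Tagln was at 21.3, 32.0, 39.6, 80.0 and 7.55 normalized counts in the PGC1αHet libraries and at 25.1, 37.7, 31.7 and 44.2 in the PGC1αNull libraries. The log2 difference of Fn1 was 0.41 ± 0.36 (SE; 95% interval -0.37 to 1.18), and that of Tagln 0.27 ± 0.58 (SE; 95% interval -0.99 to 1.52). Both intervals include 0. Cdh1 was at 4258, 4238, 6603, 6232 and 4154 normalized counts in the PGC1αHet libraries and at 3689.5, 6124, 5009 and 2865 in the PGC1αNull libraries. The Cdh1 groups overlapped, with a log2 difference of -0.23 ± 0.27 (SE; 95% interval -0.81 to 0.34), adjusted p = 0.998.

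Pecam1 and Dcn differed in the same direction as the 4 EMT genes. Pecam1 was at 199.9, 130.4, 134, 98.7 and 173 normalized counts in the PGC1αHet libraries and at 254, 300.4, 409.5 and 327 in the PGC1αNull libraries. The Pecam1 groups did not overlap, and the log2 difference was 1.15 ± 0.26 (SE; 95% interval 0.58 to 1.72), adjusted p = 0.476. Dcn was at 73.6, 50.6, 41.7, 23.4 and 88.0 normalized counts in the PGC1αHet libraries and at 176, 498, 81.9 and 183 in the PGC1αNull libraries. The log2 difference of Dcn was 1.90 ± 0.50 (SE; 95% interval 0.82 to 2.98), adjusted p = 0.618. All 15 of 15 tested endothelial markers had a log2 difference above 0, with a median of 1.70, and 13 were past the unadjusted threshold. So did 12 of 12 tested fibroblast markers, with a median of 1.38 and 6 past it, and 6 of 6 tested mesothelial markers, with a median of 1.41 and 3 past it. The summed endothelial markers were 701 to 1575 counts in PGC1αHet and 2118 to 3395 in PGC1αNull, and the summed fibroblast markers 147 to 717 and 578 to 2644; 4 of 18 endothelial and 2 of 14 fibroblast markers were at 0 in some library and none in all. The summed mesothelial markers were 62.2 to 255 and 176 to 1041. Smooth muscle and pericyte markers summed to 140.3 to 239 and 197 to 448, and 6 of 8 tested had a difference above 0, with a median of 0.53 and none past the unadjusted threshold. Of the macrophage markers 10 of 12 had a log2 difference above 0, with a median of 1.15 and 6 past the unadjusted threshold, of the lymphocyte markers 6 of 7 did, with a median of 0.47 and 1 past it, and of the 12 AT2 markers none did, with a median of -0.26. The part of these markers in the differences of the EMT genes was not tested.

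With Pecam1 in the fit the log2 difference was 2.38 for Postn, 2.05 for Vim, 3.27 for Acta2 and 1.18 for Zeb1. With Dcn in its place the values were 1.82, 1.97, 1.91 and 1.01. In each of these fits 3 of the 4 genes still passed the unadjusted threshold, and Zeb1 did not. Zeb2 and Snai2 turned to -0.60 and -0.13 with Pecam1. Since the Pecam1 groups do not overlap, the fit with Pecam1 compares the genotypes at levels of Pecam1 that they did not share. No pooled r is given because the genotypes form separate clusters. After the genotype means were taken out, r with Pecam1 over the 9 libraries was -0.43 for Postn, -0.13 for Vim, -0.49 for Acta2 and -0.16 for Zeb1, and it was 0.53 for Zeb2 and 0.38 for Snai2. None of 18 such relations passed, with a smallest adjusted p of 0.78 (exact permutation within genotypes, 2880 arrangements). Without taking them out none passed either, with a smallest adjusted p of 0.0606 (exact permutation test).

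**Figure D3:**
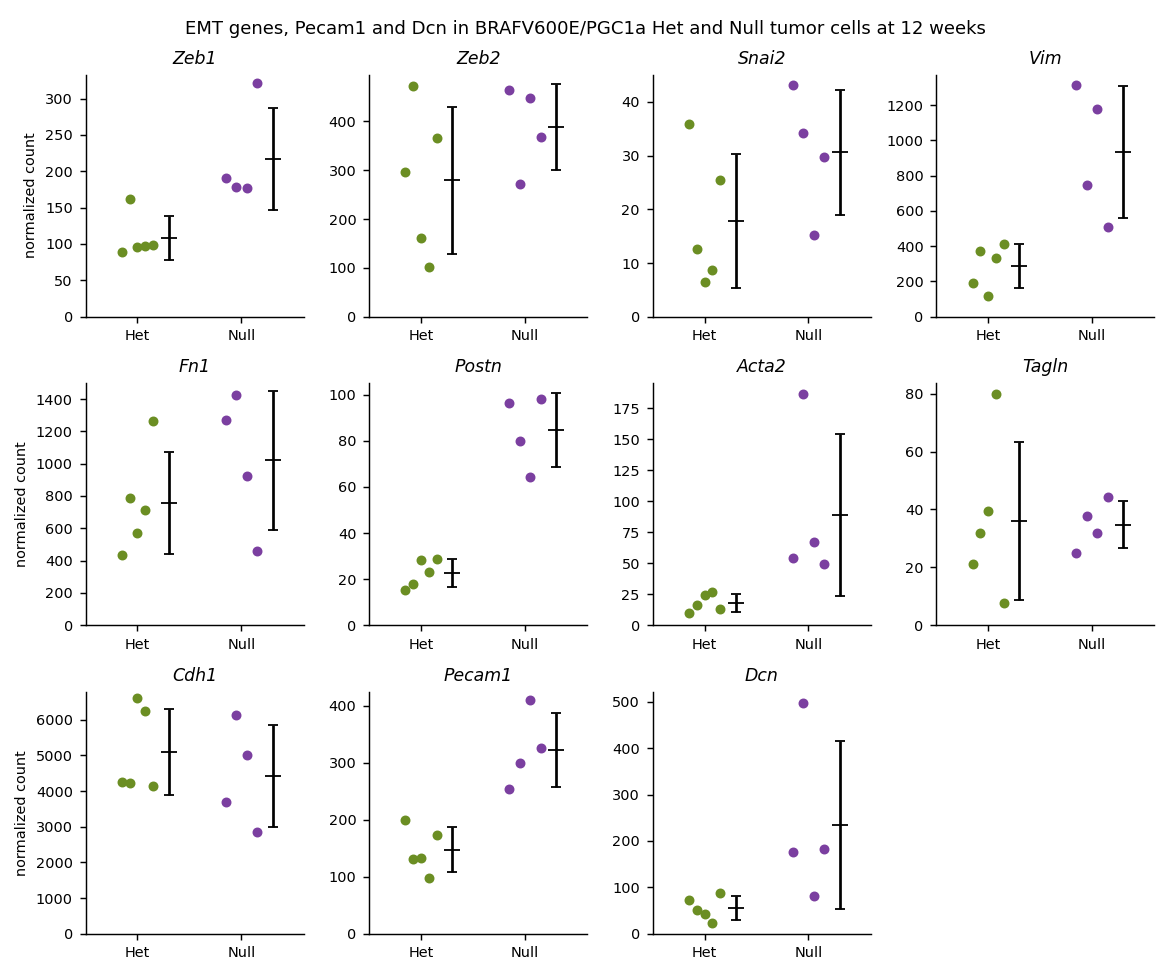
Normalized counts of 9 EMT genes, Pecam1 and Dcn in the 5 PGC1αHet (green) and 4 PGC1αNull (purple) libraries; points are libraries, and black marks give the mean and SD. Zeb1, Vim, Postn, Acta2 and Pecam1 do not overlap between the genotypes.

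**Figure D4:**
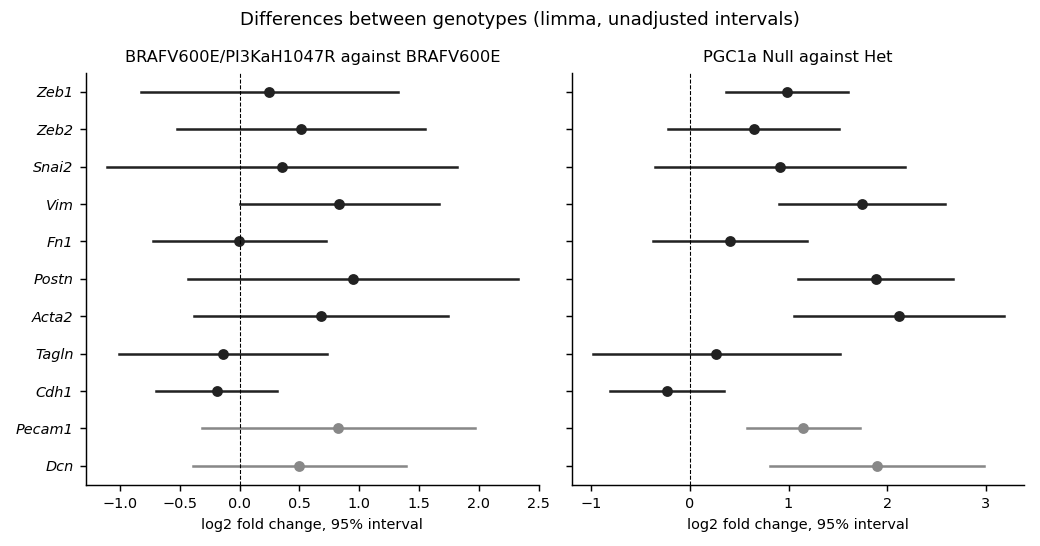
Log2 differences (points) with 95% limma intervals (lines), on log2(normalized count + 1), for 9 EMT genes (black) and for Pecam1 and Dcn (grey) between BRAFV600E/PI3KαH1047R and BRAFV600E (left) and between PGC1αNull and PGC1αHet (right). The intervals are not adjusted for the number of genes; on the right those of Vim, Postn, Acta2, Zeb1, Pecam1 and Dcn lie above 0, and that of Cdh1 spans 0.

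Other genes of the program were counted in the same way, as the number with a log2 difference above 0, which was 51.8% over all genes in the PI3KαH1047R comparison and 51.1% in the PGC1α comparison. Of 27 epithelial genes, 8 (29.6%) were higher in BRAFV600E/PI3KαH1047R, with a median log2 difference of -0.33; Cldn7, a tight junction claudin, had -0.96 ± 0.44 (SE), adjusted p = 0.718, and Ovol2, an epithelial transcription factor, had 1.24 ± 0.77 (SE), adjusted p = 0.762. Of 6 tested EMT transcription factors outside the 10 genes, 4 were higher. At the unadjusted threshold none of the 6 was higher and 1 was lower, Sox9. Sox9, a progenitor factor of distal lung, had -2.03 ± 0.48 (SE), adjusted p = 0.225, and Tcf4, a class I helix-loop-helix factor, had 0.85 ± 0.48 (SE), adjusted p = 0.75. Of 26 mesenchymal genes, 18 (69.2%) were higher, 3 of them at the unadjusted threshold, against 3.46% of all genes, with a median of 0.34. Itga5, the fibronectin receptor subunit, had 1.10 ± 0.31 (SE), adjusted p = 0.415, and Cd44, the hyaluronan receptor, had -0.96 ± 0.48 (SE), adjusted p = 0.73. Of 19 TGFβ pathway genes, 11 (57.9%) were higher; Tgfbr2, a receptor, had 0.41 ± 0.15 (SE), adjusted p = 0.579, and Bambi, a pseudoreceptor, had -0.53 ± 0.27 (SE), adjusted p = 0.738. None of these lists had a gene past the adjusted threshold.

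In PGC1αNull, 4 of 27 epithelial genes (14.8%) were higher, with a median log2 difference of -0.17 and none past the unadjusted threshold. Prss8, an epithelial serine protease, had -0.49 ± 0.25 (SE), adjusted p = 0.998, and Krt7, a simple epithelial keratin, had 0.13 ± 0.36 (SE), adjusted p = 0.998. Of 24 tested mesenchymal genes 16 (66.7%) were higher, 2 of them at the unadjusted threshold, against 2.66% of all genes, with a median of 0.37. At that threshold 1 mesenchymal gene was lower, as were 203 of all 17424 genes. Mmp2, a gelatinase, had 2.30 ± 0.85 (SE), adjusted p = 0.998, and Bgn, the proteoglycan biglycan, had -1.15 ± 0.46 (SE), adjusted p = 0.998. Of 6 tested EMT transcription factors 5 were higher; Tcf4 had 0.80 ± 0.30 (SE), adjusted p = 0.998, and Tcf3 had -0.12 ± 0.29 (SE), adjusted p = 0.998. Of 19 TGFβ pathway genes 8 (42.1%) were higher. Itgb6, an integrin subunit of epithelium, had -1.08 ± 0.48 (SE), adjusted p = 0.998, and Inhba, an activin subunit, had 0.64 ± 0.44 (SE), adjusted p = 0.998. None of these lists had a gene past the adjusted threshold.

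The genes whose pattern was most like each EMT gene were taken by the highest Pearson r of log2(normalized count + 1) over the 14 libraries, among genes with a mean over 40, and each r was recomputed, after the genotype means were taken out, over the 9 PGC1α libraries, which had no part in the choice. All these r values are descriptions, and those over 14 libraries hold any difference between genotypes and weeks. For Postn they were Jcad (r = 0.99, and -0.52 in the other table), Cdh5 (r = 0.99, and 0.09 in the other table) and Pitpnc1 (r = 0.98, and -0.42 in the other table). For Vim they were Clic4 (r = 0.97, and -0.38 in the other table), Prkch (r = 0.97, and 0.03 in the other table) and Arap3 (r = 0.96, and 0.43 in the other table). Cdh5, the endothelial cadherin, was thus among the 3 nearest to Postn. For Zeb1 they were B4galt4 (r = 0.97, and -0.60 in the other table), Tbx5 (r = 0.97, and 0.48 in the other table) and Mid2 (r = 0.97, and -0.38 in the other table), and for Zeb2 they were Dgkh (r = 0.97, and 0.05 in the other table), Hist1h2bq (r = 0.97, and -0.59 in the other table) and Tpst1 (r = 0.96, and -0.63 in the other table). For Snai2 they were Prelp (r = 0.96, and 0.29 in the other table), Plxdc2 (r = 0.96, and 0.48 in the other table) and Spon1 (r = 0.96, and 0.58 in the other table).

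The nearest genes of Fn1 were Bdnf (r = 0.94, and 0.28 in the other table), Rasgrf2 (r = 0.93, and -0.15 in the other table) and Fmo2 (r = 0.93, and -0.23 in the other table). Those of Acta2 were Camk4 (r = 0.88, and -0.71 in the other table), Apc2 (r = 0.87, and -0.93 in the other table) and Rps6ka6 (r = 0.86, and -0.74 in the other table), and those of Tagln were Cntn4 (r = 0.81, and -0.14 in the other table), Ogfod1 (r = 0.77, and 0.16 in the other table) and Cdyl2 (r = 0.77, and 0.11 in the other table). For Cdh1 they were Aco1 (r = 0.94, and 0.89 in the other table), Cdkn1a (r = 0.94, and 0.88 in the other table) and Shb (r = 0.93, and 0.90 in the other table). The set of Cdh1 was the only one of the 9 with each r over 0.8 in the PGC1α libraries, whereas that of Acta2 held no r over 0 there.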

How the data were processed

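Per the labels, RNA from sorted tdTomato+ cells was made into libraries with the Nugen Ovation Ultralow V2 kit, and reads were checked with FastQC, quantified with Salmon and normalized with DESeq2 against GRCm38; tool versions were not given in the sources used here. The authors deposited 2 tables of normalized counts, used here as signal values, and each was scaled separately. Sequencing depth per library is not known from such values, so no counting interval is given. Further deposited tables hold the authors' own fold changes and p-values and were not used.

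Genes with a mean of at least 10 normalized counts were tested with limma 3.58.1 (limma-trend, R 4.3.3) on log2(normalized count + 1), which understates the change of low genes, with Benjamini-Hochberg adjustment over all genes tested and 95% intervals. Python 3.11.15, numpy 2.4.6 and scipy 1.17.1 gave the permutation tests, two-sided, with 100000 resamples over 14 libraries and exact enumeration over fewer than 10. In the PI3KαH1047R comparison the weeks were pooled without a week term; the comparisons by week came from a fit with a term for each group, and the weeks over both genotypes from a fit of week and genotype. Groups were taken from the labels. The fits were tested on simulated data.

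The genes named are the 10 EMT genes, Pecam1, Dcn, 3 most alike genes for each tested EMT gene among those with a mean over 40, and from each pathway list the genes past an adjusted p of 0.05 or, where there was none, that with the smallest p in each direction in the genotype comparisons. The genes and lists were chosen with earlier results of these data known. Alternatives were a pseudocount of 4, no filter or a minimum mean of 40, quantile normalization, sex, week, Pecam1, Dcn or the replicate number in the fit, and each library left out. Those with both BRAFV600E/PI3KαH1047R libraries at 12 weeks left out, or their sex labels exchanged, were chosen after seeing the data.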

Additional observations from a re-analysis of the deposited data

Results flagged for a closer look

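In 8 of the 55 sets of 4 to 8 libraries, each 1 gene in 1 group, tested with Dixon's criterion, 1 library stood apart. Chance gives about 1 in 20 only for independent sets of normally distributed values. Here counts were not transformed, sets share libraries, and each library that stood apart was the highest of its set. No excess over chance can therefore be read from the number. Among the BRAFV600E/PI3KαH1047R libraries at 6 weeks, replicate 1 had 10042 normalized counts of Vim against 2496 to 3685 in the other 3, 14851 of Postn against 2682 to 3221, 1200.1 of Snai2 against 175 to 317, and 16965 of Pecam1 against 2755 to 4511. Its summed endothelial markers were 236532, the highest of all 14 libraries.

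Among the 6 BRAFV600E libraries, replicate 1 at 12 weeks had 797 counts of Dcn against 266 to 427 in the others. In the PGC1α libraries, Zeb1 was 162 in PGC1αHet replicate 2 against 89.2 to 98.0 in the other 4, and 321 in PGC1αNull replicate 4 against 177 to 190.2 in the other 3. Acta2 was 186 in PGC1αNull replicate 2 against 49.6 to 66.9 in the other 3.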

How the results depend on the processing

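Of 1198 values of single genes recomputed under the alternatives, 1169 kept their direction and their side of the adjusted threshold. None of these genes was past that threshold in its main fit, so the number chiefly describes direction. It takes no account of size or of the unadjusted threshold: the pooled Vim difference counts as kept at 0.29 with Pecam1, beside 0.83 in the main fit. Of 820 counts, 674 stayed within 1.5 times their main value. With Pecam1 in the fit, the pooled PI3KαH1047R difference turned to -0.012 for Postn, -0.49 for Zeb1, -0.14 for Zeb2, -0.37 for Snai2 and 0.044 for Cdh1, with 0 EMT genes higher and 1 lower at an unadjusted p under 0.05. At 2 weeks it turned to -0.27 for Vim, -1.0 for Zeb1, -0.35 for Zeb2 and 0.10 for Cdh1, with 0 higher and 3 lower. In the same fit, 2 genes were higher and 0 lower in the interaction of 6 against 2 weeks, and 5 were lower and 2 passed the adjusted threshold from 2 to 6 weeks. In PGC1αNull, Zeb2 turned to -0.60, Snai2 to -0.13, Cdh1 to 0.13 and Tcf4 to -0.16. With Dcn in the fit the counts were 0 higher pooled, 1 higher and 1 lower at 2 weeks, 0 lower in that interaction and 0 higher from 2 to 6 weeks, and in PGC1αNull Fn1 turned to -0.019 and Snai2 to -0.33. The cause was not tested. At 2 weeks the fit with Pecam1 compares the genotypes at levels of Pecam1 that they did not share. No share of all genes is given for the counts at the unadjusted threshold in these and the following alternatives. Those counts therefore cannot be set against all genes.

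With all genes that had any count, the numbers were 0 higher pooled, and 1 lower at 2 weeks, at 12 weeks and in the interaction of 12 against 6 weeks; with quantile normalization 1 was lower at 2 weeks. With sex in the fit 0 were higher pooled, 1 at 2 weeks and 0 in the interaction of 6 against 2 weeks, also with the 2 sex labels exchanged (Zeb1 then turned to -0.015 pooled), and 2 were lower from 2 to 6 weeks; with week as a second factor 0 were higher pooled. Without both BRAFV600E/PI3KαH1047R libraries at 12 weeks 2 were higher pooled, 0 were lower from 6 to 12 weeks, and Tagln turned to 0.23 pooled. The pooled fit without them mixes week with genotype. Within the 6 BRAFV600E libraries 4 genes were related to Pecam1, against 7 over 14 libraries (permutation p under 0.05), and r of Tagln turned to 0.44 within BRAFV600E/PI3KαH1047R.

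Over all genes and all alternatives, the number past the adjusted threshold was 4 (3 to 9) pooled, 3 (0 to 268) at 2 weeks, 4 (0 to 12) at 6 weeks, 2 (0 to 16) at 12 weeks, 0 (0 to 44) and 0 (0 to 2) in the interactions, and 9 (0 to 313) from 2 to 6 weeks.

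Leaving out 1 library at a time gave 0 to 1 genes higher pooled, 1 to 4 higher and 0 to 2 lower at 2 weeks, 0 to 1 lower at 12 weeks, 0 to 1 higher and 0 to 4 lower in the interaction of 6 against 2 weeks, 0 to 1 lower in that of 12 against 6 weeks, 0 to 1 higher and 1 to 3 lower from 2 to 6 weeks, 2 to 5 lower from 6 to 12 weeks, and 4 to 5 higher in PGC1αNull. Over the same omissions the pooled difference ranged from -0.30 to 0.13 for Tagln, from -0.028 to 0.47 for Zeb1 and from -0.063 to 0.71 for Snai2 (both lowest without BRAFV600E replicate 2 at 12 weeks), and that in PGC1αNull from -0.17 (without PGC1αHet replicate 5) to 0.64 for Tagln, from -0.094 to 0.38 for Krt7 and from -0.27 to 0.011 for Tcf3. Other values kept their sign but moved by over 1.5 times. Pooled, they were those of Zeb2 (0.21 to 0.68) and Acta2 (0.37 to 0.92), both lowest without the same BRAFV600E library. Pooled Postn (0.61 without the BRAFV600E library at 2 weeks, to 1.26) moved as far. Pooled Cdh1 ranged from -0.28 to -0.066, the latter without BRAFV600E/PI3KαH1047R replicate 1 at 2 weeks. Pooled Dcn (0.33 to 0.76), Ovol2 (0.80 to 1.57) and Tcf4 (0.48 to 1.05) also did so. At 6 weeks it was that of Acta2 (0.21 without BRAFV600E/PI3KαH1047R replicate 4, to 0.85). At 12 weeks it was that of Tagln (-0.87 to -0.29, without BRAFV600E/PI3KαH1047R replicate 1 and 2 in turn). In PGC1αNull they were those of Zeb2 (0.33 without PGC1αHet replicate 4, to 0.88) and Fn1 (0.20 without PGC1αNull replicate 2, to 0.75). Cdh1 in PGC1αNull went from -0.41 to -0.044, without PGC1αNull replicates 2 and 4 in turn. Inhba (0.28 to 0.87), Prss8 (-0.66 to -0.25), Bgn (-1.53 to -0.70) and Itgb6 (-1.50 to -0.68) moved as far in PGC1αNull.

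The deviations of same-numbered libraries had r from -0.47 to 0.21. Without r of differently numbered libraries for comparison, these values do not decide whether the numbers pair libraries. With the replicate block, 0 genes were higher pooled, 0 higher and 1 lower at 2 weeks and 0 lower in the interaction of 6 against 2 weeks, Vim had 0.81 pooled, and in PGC1αNull Tagln turned to -0.17 and Krt7 to -0.029. The block was not run for the week effects.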
